A study of Mus musculus with 12 samples.

Results

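The 43 genes described here encode proteins of the G2 phase of the cell cycle and of mitosis. They were chosen by name for their function: the cyclins and kinases that drive entry into mitosis, the spindle checkpoint, the machinery of anaphase, the kinetochore, spindle motors and the proteins of cytokinesis. Earlier results of these data were known when the choice was made. They are 43 of the 24421 genes in the deposited table, and all 43 were among the 15220 genes that passed the filter on low counts. Total RNA was sequenced from mouse embryonic fibroblasts (MEFs), fibroblasts grown from embryos and here immortalised with SV40 according to the study's text, to ask how the loss of the transcription factors TFEB and TFE3 changes the response to DNA damage. There were 4 groups of 3 libraries: Null MEFs left untreated (the Null controls), Null MEFs treated with 100 µM etoposide for 8 h, TFEB/TFE3 DKO MEFs made with CRISPR and left untreated (the DKO controls), and the same DKO MEFs treated with 100 µM etoposide for 8 h. Null is the labels' word and is taken here to be the genotype that the study's text calls wild type. The study's methods describe the control as carrying the solvent DMSO where the labels say untreated. Whether these terms name the same cells and treatment could not be checked. Etoposide stabilises the cleavage complex of topoisomerase II and thereby leaves breaks in DNA. No other line of either genotype is described for these libraries, so that genotype and line cannot be told apart, and nothing in the sources used here says whether the 3 libraries of a group came from separate cultures. The p-values therefore measure the spread between these libraries, which may be technical.

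In dividing cells the cyclin B-CDK1 complex triggers mitosis once CDC25 phosphatases remove the inhibitory phosphates that WEE1 and its relatives place on CDK1. The genes of G2 and mitosis are transcribed late in the cell cycle, under B-MYB with the MuvB complex and FOXM1, and many of their promoters carry a cell cycle homology region (CHR) near the start site. DNA damage halts cells before mitosis, and p53 is known to lower many of these genes through its target p21 (Cdkn1a) and the DREAM repressor complex, while SV40 large T antigen is known to bind p53 and the RB family.

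Each library held between 45577023 and 104120871 counts on genes, and the lowest count of any member in any library was 985, so that counting error was small for every member. Levels are given below as CPM, counts on a gene over the total of its library, after TMM scaling, which corrects library size for differences in composition. Fold changes are log2 values fitted by edgeR over all 12 libraries, and a gene is called where its Benjamini-Hochberg adjusted p over the 15220 genes is below 0.05. The knocked-out genes were examined first. Tfeb stood at 38.9, 39.2 and 42.1 CPM in the Null controls, 11.4, 10.2 and 10.4 CPM in Null cells after etoposide, 4.60, 6.09 and 4.68 CPM in the DKO controls and 1.92, 1.61 and 2.20 CPM in DKO cells after etoposide. It was lower in every DKO library than in every Null library given the same treatment, with a log2 fold change of -2.94 ± 0.092 (SE) between the controls. Tfe3 stood at 115, 109.9 and 114 CPM in Null controls and 68.5, 69.6 and 68.1 CPM in etoposide-treated Null cells, against 94.1, 93.1 and 91.0 CPM in DKO controls and 70.7, 71.2 and 63.4 CPM in etoposide-treated DKO cells. Tfe3 RNA was not lost in DKO cells: it was modestly lower between the controls, at a log2 fold change of -0.29 ± 0.042 (SE), and overlapped between genotypes after etoposide (-0.0081). Cdkn1a, which encodes the CDK inhibitor p21, was at 71.5, 65.6 and 60.1 CPM in the Null controls, 498, 511 and 510.0 CPM in Null cells after etoposide, 38.4, 39.8 and 40.7 CPM in the DKO controls and 242, 254 and 227 CPM in DKO cells after etoposide. Every treated library lay above every control library of its genotype.

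In Null cells, etoposide lowered most of the members. Of the 43, 31 were called lower (72.1%, against 37.2% of all genes tested) and 6 higher (14.0%, against 42.3% of all genes). The median log2 fold change of the members was -0.42, and that of all genes was 0.066. The largest falls were those of Cdc25b (-1.42 ± 0.049 (SE), edgeR adjusted p = 2.52e-14), Prc1 (-1.29 ± 0.043 (SE), edgeR adjusted p = 1.28e-14) and Nusap1 (-1.23 ± 0.055 (SE), edgeR adjusted p = 7.27e-13). The largest rises were those of Gtse1 (2.98 ± 0.031 (SE), edgeR adjusted p = 9.89e-21), Pttg1 (0.76 ± 0.051 (SE), edgeR adjusted p = 2.19e-10) and Mad2l1 (0.52 ± 0.040 (SE), edgeR adjusted p = 1.67e-09). For each of these 6 genes the 3 treated libraries lay entirely on one side of the 3 controls. The 6 were picked for the size of their change, and the share of all genes so separated was not counted. In bulk RNA, fewer cells in G2 or mitosis and less of these transcripts per cell cannot be told apart.

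In DKO cells, 30 members were called lower after etoposide (69.8%, against 31.5% of all genes) and 5 higher (11.6%, against 43.7% of all genes). The members' median log2 fold change was -0.44, beside 0.14 for all genes. Ube2c (-1.58 ± 0.040 (SE), edgeR adjusted p = 5.73e-16), Anln (-1.35 ± 0.035 (SE), edgeR adjusted p = 6.89e-16) and Prc1 (-1.25 ± 0.043 (SE), edgeR adjusted p = 3.04e-14) fell furthest. Gtse1 (1.93 ± 0.030 (SE), edgeR adjusted p = 1.87e-18), Pttg1 (0.59 ± 0.052 (SE), edgeR adjusted p = 1.40e-08) and Mad2l1 (0.43 ± 0.040 (SE), edgeR adjusted p = 3.18e-08) again rose most. Counted over both genotypes, 26 members were called lower in each (60.5%, against 24.2% of all genes) and 3 higher in each (6.98%, against 30.5% of all genes). A further 2 fell in Null cells and rose in DKO cells (Mybl2 and Espl1, 4.65%, against 5.40% of all genes), and 2 did the reverse (Cdc20 and Cenpe, 4.65%, against 3.52% of all genes). The 4 called in neither genotype in this fit were Incenp, Bub1, Ttk and Ckap2l. The summed level of the 43 members, in CPM, was 5721, 5776 and 5586 in the Null controls and 4277, 4461 and 4390.3 in Null cells after etoposide. In DKO cells the sums were 5520.5, 5472 and 5456 in the controls and 3707, 3686 and 3829 after etoposide, so that treated and control libraries did not overlap in either genotype.

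The size of these counts depended on how libraries were scaled. With library size alone in place of TMM, the median of all genes moved up by 0.17 in Null cells and by 0.27 in DKO cells. Members called higher and lower then numbered 12 and 28 in Null cells and 15 and 24 in DKO cells. Of all calls, the share that was higher went from 53.2% to 64.0% in Null cells and from 58.1% to 75.6% in DKO cells. Relative to the median of all genes, the members' median was -0.49 in Null cells and -0.58 in DKO cells, a difference that a change of scaling leaves as it is by construction, since it shifts all genes alike.

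**Figure D1:**
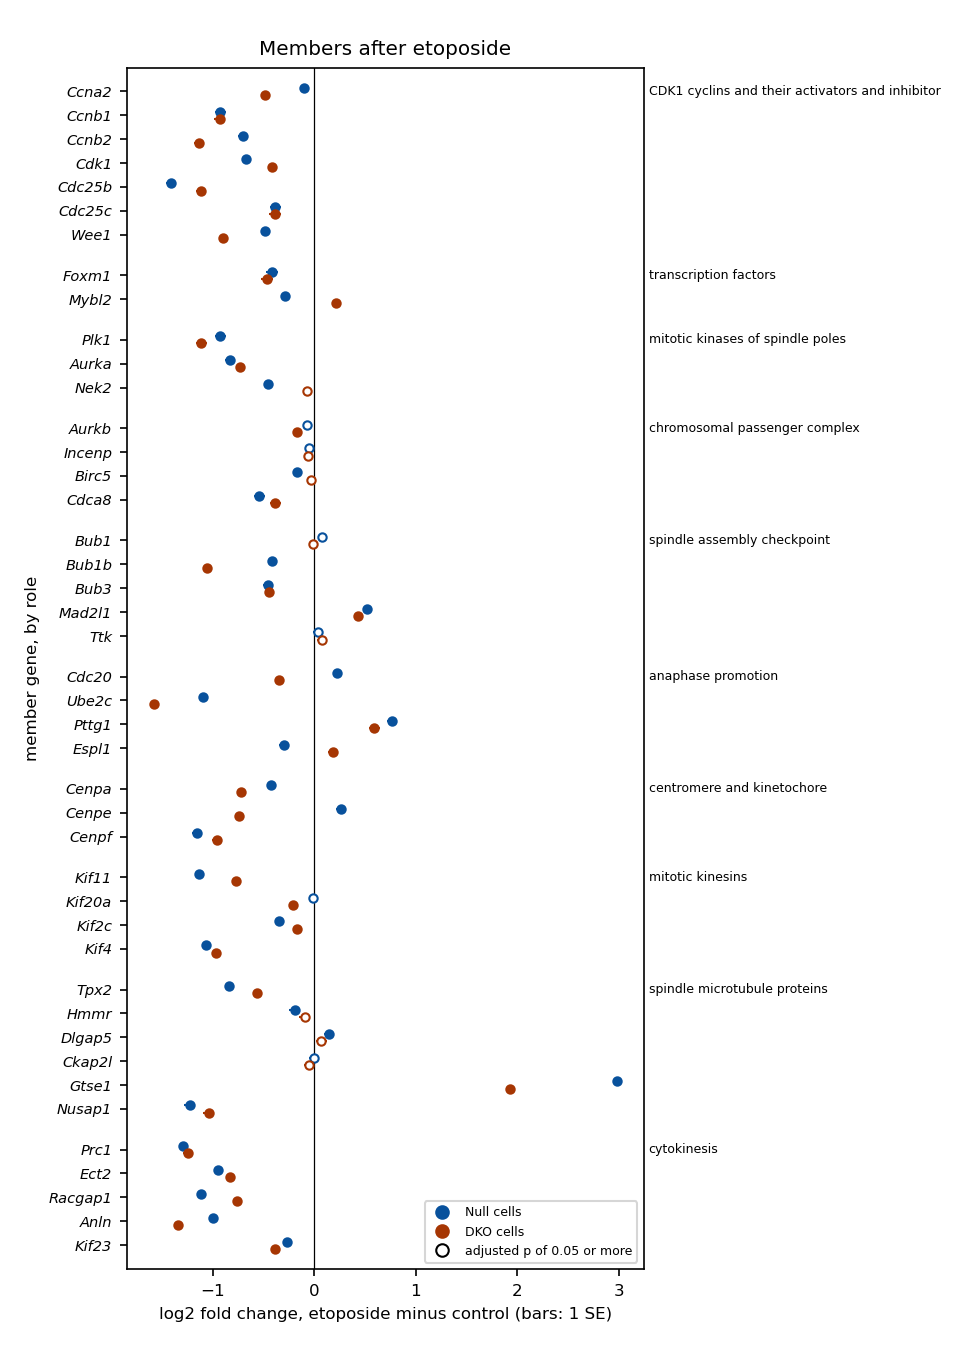
Log2 fold change after etoposide of each of the 43 members, grouped by role, in Null cells (blue) and DKO cells (brown). Bars are 1 SE, and open circles have an edgeR adjusted p of 0.05 or more. Most points lie left of 0, and Gtse1 lies furthest to the right in both genotypes, at 2.98 and 1.93.

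Because so many members moved together, their promoters are shown for the 3 largest falls in Null cells, for the largest rise, and for the 2 members with the most copies of the CHR letters in the bases printed (ties taken by mean CPM, a choice made after the matches were seen). Windows come from the RefSeq table for GRCm38.p6, the assembly that mm10 names, and matched 34 of the 43 members by symbol, with 38 windows. Each runs here from 250 bases before the annotated start to the first 30 bases of the transcript, 5′ to 3′ on the strand of the gene, with matches to TTTGAA or TTCGAA on either strand in capitals (TTCGAA is its own reverse complement, and TTTGAA reads TTCAAA on the other strand). The windows are Cdc25b at chr2:131186698-131186977 on the plus strand, Prc1 at chr7:80294201-80294480 on the plus strand, Nusap1 at chr2:119618048-119618327 on the plus strand, Gtse1 at chr15:85859457-85859736 on the plus strand, Cdk1 at chr10:69352883-69353162 on the minus strand and Ect2 at chr3:27153825-27154104 on the minus strand.
Cdc25b: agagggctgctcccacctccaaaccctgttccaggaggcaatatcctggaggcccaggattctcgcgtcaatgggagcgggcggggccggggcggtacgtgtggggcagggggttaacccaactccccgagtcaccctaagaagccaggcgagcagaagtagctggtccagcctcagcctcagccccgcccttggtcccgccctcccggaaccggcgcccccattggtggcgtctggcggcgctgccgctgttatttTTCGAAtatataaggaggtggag
Prc1: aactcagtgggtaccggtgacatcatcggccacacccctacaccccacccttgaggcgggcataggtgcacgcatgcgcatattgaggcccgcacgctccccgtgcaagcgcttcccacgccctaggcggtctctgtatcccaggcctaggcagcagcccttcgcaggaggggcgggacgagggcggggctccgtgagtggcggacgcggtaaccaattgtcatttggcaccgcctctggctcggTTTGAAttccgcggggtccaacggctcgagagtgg
Nusap1: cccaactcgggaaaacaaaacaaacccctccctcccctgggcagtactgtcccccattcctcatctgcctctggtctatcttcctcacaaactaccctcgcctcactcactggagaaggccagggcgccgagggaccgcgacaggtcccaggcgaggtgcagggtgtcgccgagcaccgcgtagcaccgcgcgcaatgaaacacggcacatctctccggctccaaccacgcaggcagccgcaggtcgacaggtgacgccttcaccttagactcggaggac
Gtse1: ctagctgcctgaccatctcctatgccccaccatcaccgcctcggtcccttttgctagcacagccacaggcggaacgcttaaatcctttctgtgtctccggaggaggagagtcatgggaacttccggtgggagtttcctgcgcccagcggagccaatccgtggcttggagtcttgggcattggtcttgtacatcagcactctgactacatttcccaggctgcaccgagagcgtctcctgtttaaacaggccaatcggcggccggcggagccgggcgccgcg
Cdk1: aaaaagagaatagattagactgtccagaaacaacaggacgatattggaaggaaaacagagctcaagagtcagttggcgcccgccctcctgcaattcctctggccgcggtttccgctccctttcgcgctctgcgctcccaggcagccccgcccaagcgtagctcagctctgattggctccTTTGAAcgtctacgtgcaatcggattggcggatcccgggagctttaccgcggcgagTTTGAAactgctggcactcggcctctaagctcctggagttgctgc
Ect2: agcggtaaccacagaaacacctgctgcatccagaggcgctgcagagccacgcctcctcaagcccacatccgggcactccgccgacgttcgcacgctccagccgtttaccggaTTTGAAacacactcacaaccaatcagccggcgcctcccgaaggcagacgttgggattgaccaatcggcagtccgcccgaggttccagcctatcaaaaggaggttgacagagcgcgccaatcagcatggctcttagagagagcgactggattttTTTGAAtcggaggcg

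Over the full windows of 250 bases before to 50 after the start, the letters TTTGAA or TTCGAA occurred in 28 of the 38 member windows (73.7%) and in 19.2% of the 32851 windows of all genes. CCAAT, the letters of the box that CHR promoters often carry upstream, occurred in 31 of the 38 (81.6%) and in 37.4% of all windows. Both together occurred in 26 of the 38 (68.4%) and in 7.52% of all. CACGTG, an E-box that TFEB and TFE3 can bind, was found in the windows of Anln, Ttk and Espl1, which is 3 of 38 (7.89%) beside 7.15% of all windows. GCGGGAA, the letters of an E2F site, was found in 0 of the 38 and in 4.60% of all windows. These matches describe letters and do not show binding. In Cdk1 the copies began at positions -71 and -15, counted from 1 at the start site with no position 0. Prc1 had a copy beginning at -5 in the window printed, and Cdc25b at 8. Nusap1 and Gtse1 had none, although one fell and the other rose. The 25 members with CHR letters in a window had a median log2 fold change of -0.67 in Null cells and -0.73 in DKO cells after etoposide, and 21 of them were called lower in Null cells. The 9 members whose windows lacked the letters had medians of -0.17 and -0.037, with 5 called lower and 4 higher in Null cells. Of these, the windows of Mad2l1, Mybl2 and Pttg1 do not hold the start that GENCODE gives the gene. Letters near that start would be missed. The windows of Cdca8, Kif2c and Kif4, which have the letters, also lie away from it. In DKO cells 20 of the 25 members with the letters were lower, and of the 9 without them 3 were lower and 4 higher. Of all genes, 37.2% were lower and 42.3% higher in Null cells and 31.5% and 43.7% in DKO cells. The difference between members with and without the letters was not tested. The remaining 9 members, Ccna2, Cdc25c, Wee1, Foxm1, Aurkb, Incenp, Kif20a, Tpx2 and Dlgap5, were not used here.

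The engine of mitotic entry fell in both genotypes. All 7 genes for CDK1, its cyclins, its activating phosphatases and its inhibitory kinase were called lower after etoposide in Null cells (median log2 fold change -0.67) and in DKO cells (-0.90), beside 37.2% and 31.5% of all genes. With library size alone, Cdc25c lost its DKO call (-0.12, edgeR adjusted p = 0.072), and the Null call of Ccna2 was lost under several alternatives given below. Cdk1 (chr10:69335146-69352938), the kinase itself, was at 292, 292 and 291 CPM in the Null controls, 178, 185 and 186 CPM in Null cells after etoposide, 281, 282 and 288 CPM in the DKO controls and 206, 209.9 and 221 CPM in DKO cells after etoposide. No treated library reached the level of a control, and treated cells held 62.9% of the control level in Null and 74.8% in DKO cells. Ccna2, which encodes cyclin A2, was at 385, 385 and 387 CPM in Null controls and 348, 361 and 372 CPM in etoposide-treated Null cells, against 380.1, 364 and 369.6 CPM in DKO controls and 258, 258 and 278 CPM in etoposide-treated DKO cells. The fall was slight in Null cells (-0.10 ± 0.036 (SE), edgeR adjusted p = 0.017) and larger in DKO cells (-0.49 ± 0.036 (SE), edgeR adjusted p = 1.38e-09). In Null cells it was the least stable call of the group: the adjusted p was 0.71 with a filter at a mean of 1 CPM (log2 fold change -0.014), 0.16 with DESeq2-type size factors, 0.15 in DESeq2 and 0.058 without the Null etoposide library of replicate 1, and library size alone turned the sign (0.068). Ccnb1, the gene of cyclin B1, went from 281 ± 5.73 CPM to 148 ± 14.3 CPM (SD, n = 3) in Null cells and from 191 ± 4.31 CPM to 100.0 ± 3.66 CPM in DKO cells, or 52.6% and 52.4% of control. Ccnb2, of cyclin B2, kept 61.5% and 45.3%. Cdc25b, a phosphatase that activates CDK1, kept 37.4% and 46.2% of its control level, while its relative Cdc25c kept 76.9% and 76.1%. Wee1, whose product restrains CDK1, fell as well, to 71.4% in Null and 53.7% in DKO cells. Activators and inhibitor thus fell side by side.

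The transcription factors of this programme parted in DKO cells. Foxm1 was at 104, 114 and 103 CPM in the Null controls, 80.2, 80.7 and 78.6 CPM in Null cells after etoposide, 113, 118 and 109 CPM in the DKO controls and 81.0, 91.2 and 75.2 CPM in DKO cells after etoposide. It fell in both genotypes, by similar amounts (-0.42 ± 0.058 (SE) in Null and -0.46 ± 0.058 (SE) in DKO cells). Mybl2, which encodes B-MYB, the MuvB partner that turns these genes on, was at 73.4, 68.4 and 71.8 CPM in Null controls and 59.9, 57.0 and 57.7 CPM in etoposide-treated Null cells, against 75.8, 77.1 and 72.6 CPM in DKO controls and 84.1, 89.9 and 86.7 CPM in etoposide-treated DKO cells. Mybl2 fell in Null cells (-0.29 ± 0.040 (SE), edgeR adjusted p = 3.86e-06) and rose in DKO cells (0.21 ± 0.040 (SE), edgeR adjusted p = 0.000150), with no overlap between treated and control libraries in either genotype.

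The 3 kinases of the spindle poles were all called lower in Null cells, as were 37.2% of all genes. Aurka, the gene of Aurora A, was at 81.5, 79.1 and 76.7 CPM in the Null controls, 42.7, 46.6 and 43.7 CPM in Null cells after etoposide, 69.2, 67.5 and 66.3 CPM in the DKO controls and 42.5, 40.2 and 39.9 CPM in DKO cells after etoposide. Treated libraries lay below controls in both genotypes, at 56.1% and 60.3% of control. Plk1, polo-like kinase 1, went to 52.6% of control in Null and 46.4% in DKO cells, from 45.4 ± 1.21 CPM and 59.4 ± 3.64 CPM (SD, n = 3). Nek2, a kinase that separates centrosomes, was at 94.6, 94.7 and 91.6 CPM in Null controls and 66.3, 70.3 and 67.6 CPM in etoposide-treated Null cells, against 87.1, 89.3 and 89.3 CPM in DKO controls and 82.1, 85.0 and 85.3 CPM in etoposide-treated DKO cells. It fell in Null cells (-0.46 ± 0.035 (SE), edgeR adjusted p = 1.36e-09), whereas its value in DKO cells was -0.074 ± 0.035 (SE), edgeR adjusted p = 0.064. That DKO value passed the threshold with the same sign under 11 of 22 alternatives and was 0.20 with library size alone.

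The chromosomal passenger complex, which carries Aurora B to centromeres and later to the midzone, is represented by 4 genes. They had a median log2 fold change of -0.12 in Null and -0.12 in DKO cells, and 2 of 4 were called lower in each, beside 37.2% and 31.5% of all genes. Incenp, the scaffold, was at 108, 112 and 103 CPM in the Null controls, 104, 107 and 100.4 CPM in Null cells after etoposide, 81.0, 84.1 and 78.1 CPM in the DKO controls and 77.2, 80.2 and 75.4 CPM in DKO cells after etoposide. Treated and control libraries overlapped in both genotypes, while DKO libraries lay below Null libraries under either treatment. With library size alone the gene was called higher in both genotypes (0.11 and 0.21). Under 3 of 22 alternatives it was instead called lower in DKO cells (-0.105 to -0.094). Birc5, which encodes survivin, was at 110.5, 108 and 104 CPM in Null controls and 94.6, 97.3 and 94.9 CPM in etoposide-treated Null cells, against 74.3, 74.6 and 74.7 CPM in DKO controls and 72.8, 71.2 and 73.8 CPM in etoposide-treated DKO cells. It was called lower in Null cells (-0.17 ± 0.033 (SE), edgeR adjusted p = 0.000159), a call lost with library size alone (-0.0028), and stood at -0.037 ± 0.034 (SE) in DKO cells, where library size alone gave 0.24. Aurkb itself, the kinase, was at -0.069 in Null and -0.17 in DKO cells on the log2 scale. The DKO value was called lower and turned to 0.10 with library size alone. Cdca8, of borealin, fell furthest, to 68.7% and 76.7% of control, and its DKO call was lost with library size alone (-0.11).

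Genes of the spindle assembly checkpoint, which holds back anaphase until chromosomes are attached, went in different directions. Bub3 was at 149.5, 153 and 149 CPM in the Null controls, 104, 108 and 117 CPM in Null cells after etoposide, 184, 185 and 186 CPM in the DKO controls and 133, 132 and 143 CPM in DKO cells after etoposide. It fell to 72.7% and 73.5% of control, with no overlap. Bub1b, which encodes the checkpoint inhibitor BUBR1, was at 174, 169.8 and 169 CPM in Null controls and 122, 133 and 128 CPM in etoposide-treated Null cells, against 137, 134 and 134 CPM in DKO controls and 65.7, 61.4 and 67.0 CPM in etoposide-treated DKO cells. Its DKO libraries after etoposide were the lowest of all, and it kept 74.7% of control in Null and 48.0% in DKO cells. Mad2l1, the gene of MAD2, was at 68.2, 70.3 and 67.3 CPM in the Null controls, 95.7, 103 and 95.7 CPM in Null cells after etoposide, 70.5, 70.7 and 73.5 CPM in the DKO controls and 92.8, 96.7 and 99.3 CPM in DKO cells after etoposide. Every treated library exceeded every control, with rises of 0.52 ± 0.040 (SE) and 0.43 ± 0.040 (SE). Bub1 (0.076 in Null, -0.014 in DKO cells) and the kinase gene Ttk (0.035 and 0.077) were called in neither genotype in this fit. Both depended on processing. Bub1 was called higher in Null cells in DESeq2 (0.12), with DESeq2-type size factors (0.12), with a filter at a mean of 1 CPM (0.16) and with library size alone (0.24), and with the last in DKO cells too (0.26). Ttk was called higher in both with that filter (0.12 and 0.11) and with library size alone (0.20 and 0.35).

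Among the genes that promote anaphase, Cdc20 encodes the activator of the anaphase-promoting complex. It was at 155, 157 and 149.8 CPM in the Null controls, 177, 175 and 188 CPM in Null cells after etoposide, 101, 103 and 98.2 CPM in the DKO controls and 76.8, 79.6 and 80.8 CPM in DKO cells after etoposide. It rose in Null cells (0.22 ± 0.036 (SE), edgeR adjusted p = 2.29e-05) and fell in DKO cells (-0.35 ± 0.037 (SE), edgeR adjusted p = 1.92e-07), where the call was lost with library size alone (log2 fold change -0.077). Ube2c, the ubiquitin-conjugating enzyme of that complex, fell to 46.9% of control in Null and 33.5% in DKO cells, from 104 ± 1.09 CPM and 89.0 ± 3.69 CPM (SD, n = 3). Pttg1, which encodes securin, the inhibitor of separase, was at 18.1, 17.2 and 16.1 CPM in Null controls and 29.1, 29.0 and 29.2 CPM in etoposide-treated Null cells, against 17.2, 16.1 and 16.5 CPM in DKO controls and 24.9, 24.7 and 25.3 CPM in etoposide-treated DKO cells. Its treated libraries were above its controls in both genotypes, at 170.0% and 150.4% of control. Espl1, the gene of separase, the protease that cleaves cohesin, was at 107, 109 and 105 CPM in the Null controls, 91.2, 87.0 and 82.3 CPM in Null cells after etoposide, 67.6, 74.5 and 67.2 CPM in the DKO controls and 80.2, 80.6 and 76.6 CPM in DKO cells after etoposide. It fell in Null cells (-0.30 ± 0.045 (SE), edgeR adjusted p = 9.95e-06) and rose in DKO cells (0.18 ± 0.046 (SE), edgeR adjusted p = 0.0021), and treated and control libraries were separate in each. Securin and separase transcripts thus moved apart in Null cells.

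**Figure D2:**
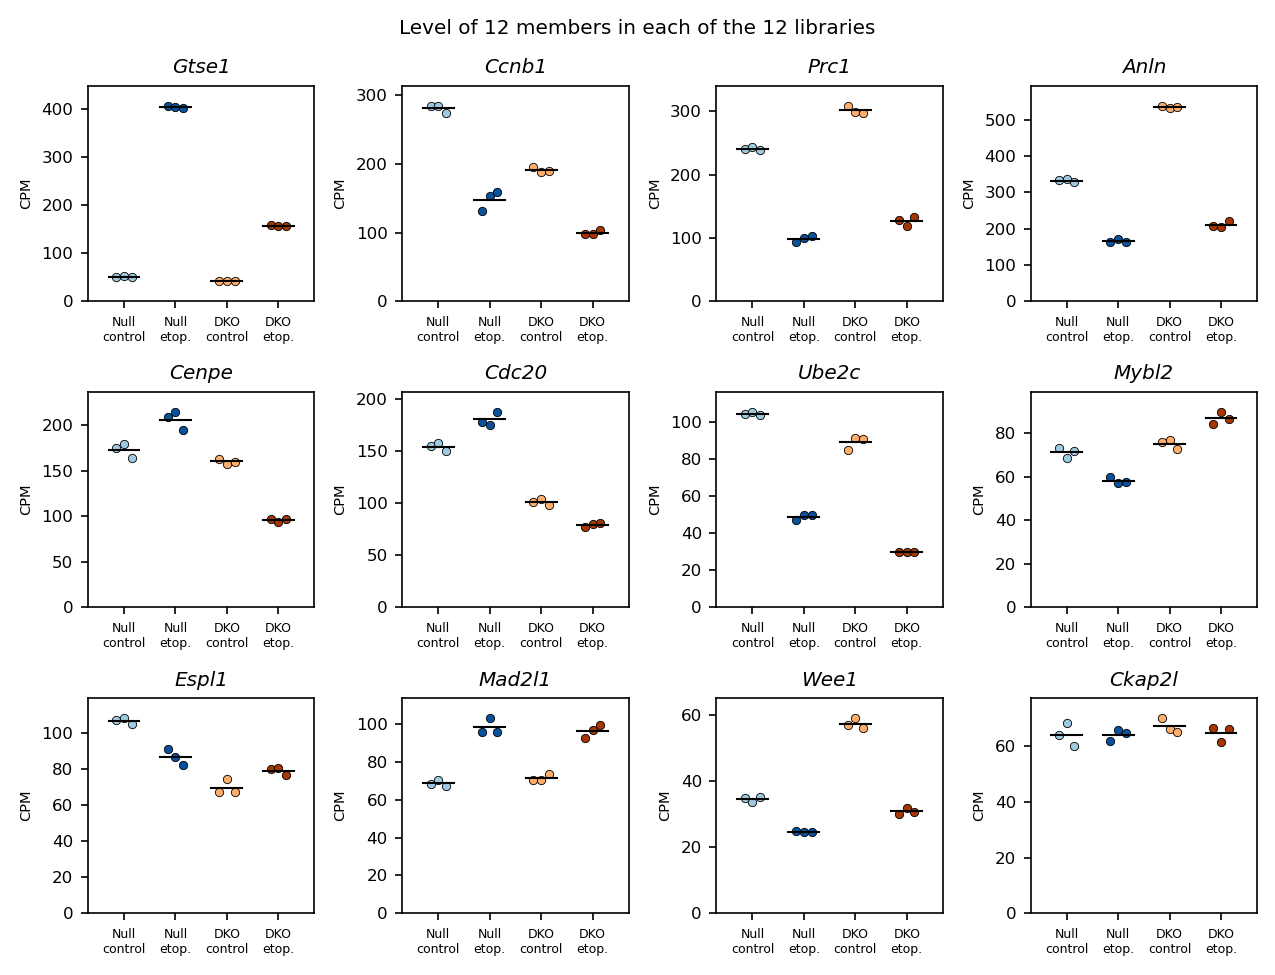
Level in CPM of 12 members in each of the 12 libraries, with 1 point per library and a line at the mean of each group of 3, on axes that start at 0. Gtse1 stands near 406 CPM in treated Null cells and near 158 CPM in treated DKO cells, and Ckap2l is nearly level across the groups.

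At the centromere, Cenpe encodes the kinesin CENP-E that moves chromosomes to the spindle equator. It was at 175, 179 and 164 CPM in the Null controls, 209, 215 and 195 CPM in Null cells after etoposide, 163, 158 and 159 CPM in the DKO controls and 96.6, 93.5 and 97.1 CPM in DKO cells after etoposide. The 3 treated Null libraries were the highest and the 3 treated DKO libraries the lowest, without overlap, so that the response went up in Null cells (0.26 ± 0.041 (SE), edgeR adjusted p = 1.73e-05) and down in DKO cells (-0.74 ± 0.041 (SE), edgeR adjusted p = 2.82e-11). Cenpf, of a large kinetochore protein, was at 131, 140.3 and 122 CPM in Null controls and 58.5, 60.9 and 56.5 CPM in etoposide-treated Null cells, against 135, 139.6 and 138 CPM in DKO controls and 71.6, 70.5 and 69.6 CPM in etoposide-treated DKO cells. It fell in both, to 44.7% and 51.3% of control. Cenpa, the centromeric histone H3 variant, fell to 74.3% and 60.5%.

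Of the mitotic kinesins, Kif11 (Eg5, which pushes spindle poles apart) was at 279, 283 and 271 CPM in the Null controls, 124, 129 and 125 CPM in Null cells after etoposide, 203, 202 and 204 CPM in the DKO controls and 115, 116 and 125 CPM in DKO cells after etoposide. Treated libraries lay far below controls, at 45.3% of control in Null and 58.4% in DKO cells. Kif4, a chromokinesin, fell to a like degree, to 47.6% and 50.9%. Kif20a, the kinesin MKLP2 of the central spindle, was at 188, 188 and 182 CPM in Null controls and 175, 192 and 188 CPM in etoposide-treated Null cells, against 147, 147 and 147 CPM in DKO controls and 124, 124 and 133 CPM in etoposide-treated DKO cells. Null libraries overlapped between treatments (-0.0092), and DKO libraries did not (-0.21 ± 0.038 (SE), edgeR adjusted p = 9.88e-05), but with library size alone the DKO value was 0.063. Kif2c, a microtubule depolymerase of the centromere, was at 78.6% and 89.0% of control, and its DKO call reversed in sign with library size alone (0.10).

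The proteins of spindle microtubules held the largest rise. Gtse1 (chr15:85859745-85876573) encodes a microtubule-associated protein of G2 and S phase that is known as a p53 target and as a negative regulator of p53. It was at 50.9, 52.4 and 51.1 CPM in the Null controls, 408, 404 and 404 CPM in Null cells after etoposide, 41.6, 41.6 and 41.4 CPM in the DKO controls and 159, 156 and 158 CPM in DKO cells after etoposide. The replicates lay close together and the groups were far apart: the level was 7.88 times control in Null cells and 3.80 times control in DKO cells. Without Gtse1, the median of the other 42 members after etoposide was -0.43 in Null and -0.45 in DKO cells (a calculation added after seeing the data). Tpx2, which activates Aurora A on the spindle, was at 269.7, 268 and 256 CPM in Null controls and 146, 151 and 146 CPM in etoposide-treated Null cells, against 269, 261 and 266 CPM in DKO controls and 178, 174 and 186 CPM in etoposide-treated DKO cells. It fell in both genotypes without overlap, to 55.8% and 67.6% of control. Nusap1, a microtubule bundler, fell to 42.7% and 48.6%. Dlgap5, of the spindle protein HURP, was at 55.3, 53.6 and 50.7 CPM in the Null controls, 57.0, 63.1 and 56.4 CPM in Null cells after etoposide, 44.1, 42.8 and 40.1 CPM in the DKO controls and 44.9, 42.5 and 45.6 CPM in DKO cells after etoposide. It was called higher in Null cells (0.14 ± 0.051 (SE), edgeR adjusted p = 0.016), but not without the Null control library of replicate 3 (adjusted p = 0.11), without the Null etoposide library of replicate 2 (0.14) or without the filter on low counts (0.0501). Over the 22 alternatives its adjusted p ranged from 2.67e-05 to 0.14. In DKO cells its value was 0.067, and with library size alone it was called higher (0.34). Hmmr kept 87.3% and 93.4% of control, and its Null call was lost with library size alone (-0.028) and with a filter at a mean of 1 CPM (-0.11). Its DKO value (-0.096) was not called in this fit. Under 5 of 22 alternatives that value was called lower, and with library size alone higher (0.18). Ckap2l stood at 64.2 ± 4.12 CPM and 64.1 ± 2.17 CPM in Null cells and 67.2 ± 2.68 CPM and 64.8 ± 2.71 CPM in DKO cells (SD, n = 3), and was called in none of the 5 comparisons in this fit, but higher after etoposide in both genotypes with library size alone (0.17 and 0.22).

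The genes of cytokinesis fell throughout. All 5 were called lower in both genotypes, beside 24.2% of all genes, with medians of -1.0003 in Null and -0.83 in DKO cells. Anln (chr9:22332012-22389188) encodes anillin, the scaffold of the contractile ring, and was at 333, 336 and 327 CPM in the Null controls, 163, 173 and 162 CPM in Null cells after etoposide, 539, 533 and 534 CPM in the DKO controls and 208, 204 and 219.7 CPM in DKO cells after etoposide. DKO controls held the most and treated Null cells the least, and the treated level was 50.0% of control in Null and 39.4% in DKO cells. Prc1, which bundles the microtubules of the midzone, was at 241, 243 and 239 CPM in Null controls and 92.9, 99.7 and 103 CPM in etoposide-treated Null cells, against 309, 299.6 and 297 CPM in DKO controls and 128, 119 and 134 CPM in etoposide-treated DKO cells. It kept 40.8% and 42.1% of control, and no treated library came near a control. Racgap1 and Ect2, the partners that activate RhoA at the equator, kept 46.2% and 51.6% in Null cells and 59.0% and 56.2% in DKO cells. Kif23, the kinesin of the same complex as Racgap1, fell least, to 83.0% and 76.6%.

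Levels of different genes can be compared only per length. Per kilobase of merged annotated exons, the Null controls held most Ccna2 (94.5 CPM per kilobase), followed by Cdc20 (82.5), Ccnb2 (75.3), Ccnb1 (66.7) and Cdk1 (59.1). The lowest were Cdc25c (5.75), Ttk (7.02), Dlgap5 (7.82) and Mad2l1 (8.18). Merged exons include isoforms these cells may not use. Exons of Kif20a share 29.3% of their bases with Cdc23 on the opposite strand, those of Ube2c 22.8% with Tnnc2, and those of Kif4 15.1% with Pdzd11. Exons of Cdc25c (12.7% with Gm3550), Ccna2 (12.5% with Exosc9) and Prc1 (11.1% with Rccd1) also overlap, and those of 8 more members by smaller shares. The kit marked strand, but whether counting used it is not given in the sources used here, so counts of all these members, the highest and the lowest per kilobase included, are uncertain to that extent.

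Whether the response itself differed between genotypes was asked with the interaction, the log2 response of DKO cells minus that of Null cells. It was called above 0 for 13 members (30.2%, against 29.6% of all genes) and below 0 for 11 (25.6%, against 24.4% of all genes), shares close to the background. The balance rested on scaling: DESeq2-type size factors, which moved the median of all genes by -0.063, gave 8 above and 17 below 0, while library size alone gave 18 above and 10 below. The share of all calls that was higher went from 54.8% to 47.5% with DESeq2-type size factors and to 65.2% with library size alone. Without the DKO control library of replicate 1, the members above 0 numbered 8. The lowest values were those of Gtse1 (-1.05 ± 0.042 (SE), edgeR adjusted p = 1.41e-12), Cenpe (-1.0002 ± 0.058 (SE), edgeR adjusted p = 1.87e-10) and Bub1b (-0.64 ± 0.055 (SE), edgeR adjusted p = 2.78e-08). The highest were those of Mybl2 (0.50 ± 0.057 (SE), edgeR adjusted p = 8.44e-07), Espl1 (0.48 ± 0.064 (SE), edgeR adjusted p = 6.18e-06) and Nek2 (0.39 ± 0.049 (SE), edgeR adjusted p = 3.43e-06). For these 6 members the sign and the call held under each of the 21 alternatives run. Gtse1 rose in both genotypes and less in DKO cells, Bub1b fell in both and further in DKO cells, and Cenpe, Mybl2 and Espl1 went opposite ways. Cdc20, which also went opposite ways, had an interaction of -0.57 ± 0.052 (SE), edgeR adjusted p = 5.53e-08. For Ccnb1, whose level differed between genotypes before treatment, the interaction was -0.0046 ± 0.074 (SE), edgeR adjusted p = 0.98.

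**Figure D3:**
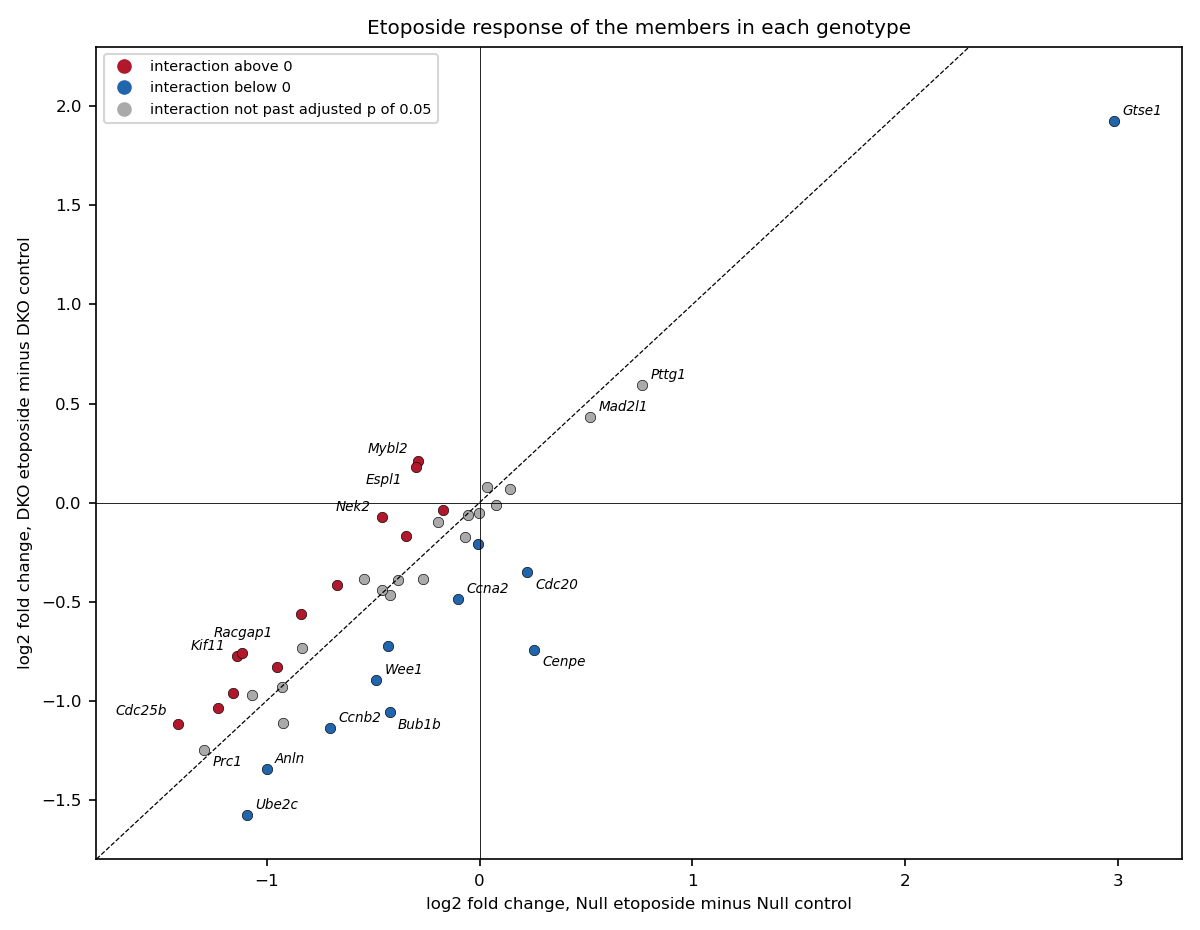
Log2 fold change after etoposide of each member in Null cells (x axis) and in DKO cells (y axis), 1 point per gene, with a dashed line where both are equal. Red and blue points have an interaction above and below 0 at an edgeR adjusted p below 0.05. Gtse1, Cenpe and Cdc20 lie below the line, and Mybl2 and Espl1 above it.

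Before treatment, DKO and Null cells already differed in many members. Of the 43, 19 were called lower in the DKO controls (44.2%, against 33.4% of all genes) and 8 higher (18.6%, against 33.3% of all genes), with a median log2 fold change of -0.056 beside -0.024 for all genes. Library size alone moved the median of all genes by -0.12 and the share of all calls that was higher from 49.9% to 38.4%, and called 6 members higher and 28 lower. Wee1 (0.73 ± 0.041 (SE), edgeR adjusted p = 3.31e-11), Anln (0.69 ± 0.034 (SE), edgeR adjusted p = 6.89e-12) and Plk1 (0.39 ± 0.054 (SE), edgeR adjusted p = 4.61e-06) were higher by the most. Wee1 was at 35.0, 33.7 and 35.1 CPM in the Null and 56.7, 59.1 and 56.1 CPM in the DKO controls, and Plk1 at 45.0, 46.7 and 44.4 CPM and 57.5, 63.6 and 57.2 CPM. Neither overlapped. Espl1 (-0.62 ± 0.046 (SE), edgeR adjusted p = 1.70e-09), Cdc20 (-0.61 ± 0.037 (SE), edgeR adjusted p = 1.01e-10) and Ccnb1 (-0.56 ± 0.052 (SE), edgeR adjusted p = 3.35e-08) were lower by the most. Ccnb1 was at 284, 285 and 275 CPM in the Null controls and 196, 188 and 189 CPM in the DKO controls, so that every DKO library was below every Null library. By role, 3 of the 4 kinesins, 3 of the 4 passenger genes and 3 of the 4 anaphase genes were lower, while the kinesin gene Kif4 was higher (0.37). Of the 5 cytokinesis genes 3 were higher, of which Kif23 lost its call with library size alone (0.025). The other cytokinesis genes, Ect2 (-0.38) and Racgap1 (-0.33), were called lower.

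After etoposide, 21 members were called lower in DKO than in Null cells (48.8%, against 36.6% of all genes) and 14 higher (32.6%, against 37.5% of all genes). The members' median was -0.085 and that of all genes -0.0045. Gtse1 (-1.36 ± 0.029 (SE), edgeR adjusted p = 7.48e-17), Cdc20 (-1.19 ± 0.037 (SE), edgeR adjusted p = 1.15e-14) and Cenpe (-1.11 ± 0.041 (SE), edgeR adjusted p = 1.21e-13) were lower by the most. Mybl2 (0.58 ± 0.040 (SE), edgeR adjusted p = 5.19e-10), Kif4 (0.46 ± 0.035 (SE), edgeR adjusted p = 1.64e-09) and Prc1 (0.37 ± 0.043 (SE), edgeR adjusted p = 4.85e-07) were higher by the most. All 3 treated DKO libraries lay on one side of all 3 treated Null libraries for each of these 6 genes. They too were picked for the size of their change, and the share of all genes so separated was not counted. All 4 anaphase genes were lower in DKO cells after etoposide, and of these the call of Espl1 (-0.14) was lost without the Null etoposide library of replicate 1 (adjusted p = 0.066). Members called lower in DKO cells under both treatments numbered 16 (37.2%, against 20.0% of all genes), and those called higher under both numbered 7 (16.3%, against 22.8% of all genes). Cdc25b alone was called in opposite directions, at -0.12 before and 0.18 after etoposide. Both changes were small, and the libraries of the genotypes overlapped after etoposide. The first was lost without the Null control library of replicate 3 (adjusted p = 0.089) or the DKO control library of replicate 2 (0.056) or of replicate 3 (0.073), and the second without the DKO etoposide library of replicate 1 (0.064), with DESeq2-type size factors (0.054) or with a filter at a mean of 1 CPM (0.060). Over the 22 alternatives the adjusted p ranged from 0.000255 to 0.089 for the first and from 0.000902 to 0.064 for the second.

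**Figure D4:**
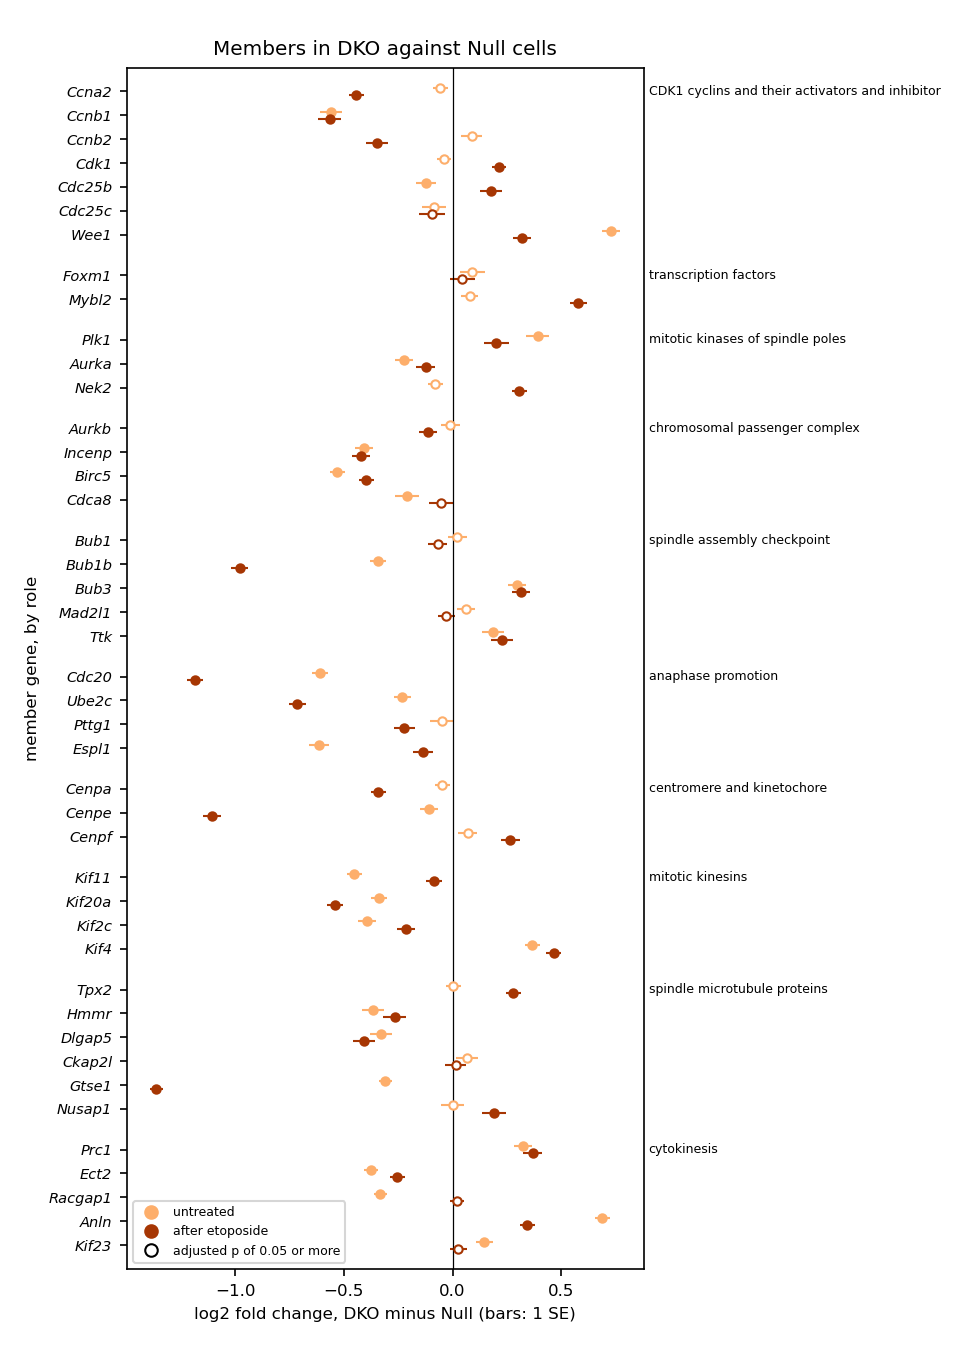
Log2 fold change of each member in DKO minus Null cells, untreated (orange) and after etoposide (brown), grouped by role. Bars are 1 SE, and open circles have an edgeR adjusted p of 0.05 or more. Gtse1, Cdc20, Cenpe and Bub1b lie furthest to the left after etoposide, and Wee1 and Anln furthest to the right before it.

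Across the 4 groups, the lowest mean of a member was in treated DKO cells for 19 members and in treated Null cells for 17. The DKO controls were lowest for 4 and the Null controls for 3. The highest mean was in the Null controls for 21 members, in the DKO controls for 13, in treated Null cells for 7 and in treated DKO cells for 2.

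The other genes of the same processes did not all move as the members did. The shares below stand beside 42.3% higher and 37.2% lower of all genes in Null cells and 43.7% and 31.5% in DKO cells. After etoposide, other kinetochore genes were called 16 higher (53.3%) and 8 lower (26.7%) of 30 in Null cells (median 0.21) and 16 higher (53.3%) and 8 lower (26.7%) in DKO cells (median 0.23). With library size alone, which moved all genes up, higher and lower numbered 20 and 6 in Null and 24 and 3 in DKO cells. Their 3 genes of highest CPM were Zwint (0.30 and 0.43 in Null and DKO cells), Casc5 (-0.60 and -0.43) and Sgol2a, the shugoshin that guards centromeric cohesion (-0.034 and -0.11). The genes of condensin and cohesin, the rings that shape and hold chromosomes, were called 4 higher (21.1%) and 13 lower (68.4%) of 19 in Null cells (median -0.35) and 3 higher (15.8%) and 12 lower (63.2%) in DKO cells (median -0.17), and with library size alone 5 and 11 in Null and 10 and 6 in DKO cells. Rad21 stood at -0.28 and -0.30, Smc4 at -0.35 and -0.56 and Smc2 at -0.11 and -0.042. Library size alone moved the median of all genes up by 0.17 in Null and 0.27 in DKO cells. Those shifts were larger than the falls of Smc2 and Sgol2a, whose signs turned. Other spindle and cytokinesis genes were called 11 higher (39.3%) and 15 lower (53.6%) of 28 in Null cells (median -0.13) and 10 higher (35.7%) and 14 lower (50.0%) in DKO cells (median -0.095). Library size alone gave 13 and 9 in Null and 15 and 10 in DKO cells, with medians of 0.042 and 0.18. Mki67, the proliferation antigen, was at -0.13 and -0.11 with both signs turned under library size alone. Top2a, whose product is the target of etoposide, was at -0.93 and -0.82, and Ckap5, a microtubule polymerase, at -0.87 and -0.55. Subunits and partners of the anaphase-promoting complex were called 9 higher (52.9%) and 7 lower (41.2%) of 17 in Null cells (median 0.18) and 8 higher (47.1%) and 5 lower (29.4%) in DKO cells (median 0.093), among them Anapc5 (0.23 and 0.19), Ube2s (-0.48 and 0.050) and Anapc1 (-0.80 and -0.31). With library size alone these counts were 10 and 5 in Null and 13 and 3 in DKO cells.

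Regulators upstream of the members were called in both directions. Subunits of DREAM and MuvB were called 3 higher (27.3%) and 3 lower (27.3%) of 11 in Null cells (median -0.041) and 2 higher (18.2%) and 2 lower (18.2%) in DKO cells (median -0.0022). With library size alone the counts became 6 and 2 in Null and 9 and 1 in DKO cells, and the medians turned positive. Tfdp1 was at 0.20 and 0.018, Rbbp4 at -0.32 and -0.41 and E2f4, the repressor E2F of DREAM, at -0.45 and -0.0022. The DKO values of Tfdp1 and E2f4 were small beside the shift of all genes under library size alone (0.27). Known brakes on entry into mitosis were called 7 higher (63.6%) and 2 lower (18.2%) of 11 in Null cells (median 0.73) and 7 higher (63.6%) and 3 lower (27.3%) in DKO cells (median 0.51), and with library size alone 9 and 2 in Null and 8 and 3 in DKO cells. Ccng1, the p53 target cyclin G1, went from 116 ± 1.67 CPM to 2103 ± 15.6 CPM (SD, n = 3) in Null cells and from 137 ± 5.09 CPM to 658 ± 25.1 CPM in DKO cells. Plk2 rose in Null and fell in DKO cells (0.73 and -0.69), and Btg2 rose in both (2.35 and 0.95). Most S phase genes were called higher: 30 higher (68.2%) and 6 lower (13.6%) of 44 in Null cells (median 0.28). In DKO cells 35 were higher (79.5%) and 3 lower (6.82%), with a median of 0.33. With library size alone the counts were 37 and 2 in Null and 41 and 2 in DKO cells. Pcna was at 0.51 and 0.63, whereas Mcm6 (0.040 and 0.0047) and Mcm5 (0.0087 and 0.076) were near 0 under TMM. The values of Mcm6 and Mcm5 were also small beside the shift under library size alone (0.17 in Null and 0.27 in DKO cells). The lists were not compared with each other by a test.

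**Figure D5:**
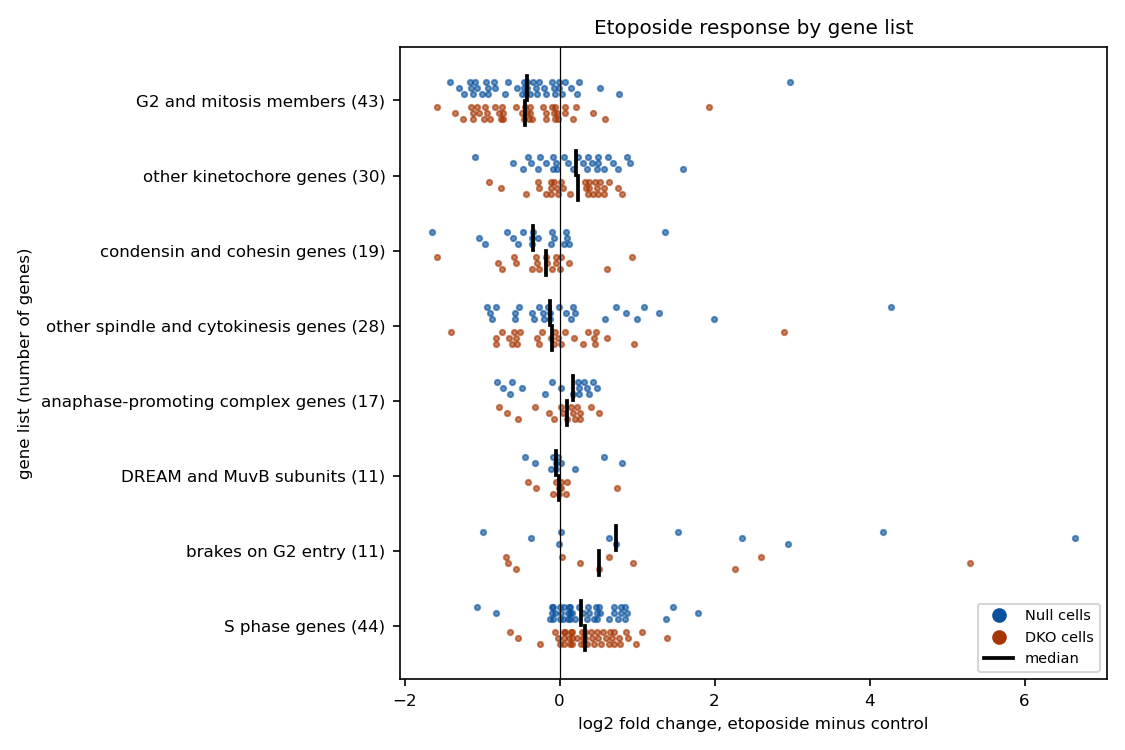
Log2 fold change after etoposide of the 43 members and of the other gene lists, 1 point per gene, in Null cells (blue) and DKO cells (brown), with the number of genes in brackets and a bar at each median. The members' medians are -0.42 and -0.44, and those of the S phase genes 0.28 and 0.33.

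Between genotypes, counts of several lists in untreated cells rested on scaling. In the DKO against the Null controls, S phase genes were called 16 higher and 16 lower of 44, beside 33.3% and 33.4% of all genes, but 8 higher and 24 lower with library size alone. Genes of the anaphase-promoting complex went from 8 higher and 2 lower to 3 higher and 5 lower, and other kinetochore genes from 12 higher and 9 lower to 7 higher and 14 lower. After etoposide, other spindle and cytokinesis genes higher and lower in DKO than in Null cells numbered 6 and 18, 6 and 19, and 6 and 18 of 28 under TMM, DESeq2-type size factors and library size alone (21.4% and 64.3% under TMM, against 37.5% and 36.6% of all genes), and other kinetochore genes 12 and 12, 10 and 12, and 12 and 12 of 30. Interactions above and below 0 numbered 2 and 7, 2 and 7, and 2 and 5 of 11 for the brakes (18.2% and 63.6% under TMM, against 29.6% and 24.4% of all genes), 5 and 16, 3 and 20, and 6 and 11 for other spindle and cytokinesis genes and 9 and 8, 4 and 11, and 13 and 5 for other kinetochore genes. Genes of the anaphase-promoting complex after etoposide were 10 higher and 3 lower of 17 in DKO than in Null cells under TMM (58.8% and 17.6%). The counts were 9 and 5 with DESeq2-type size factors and 9 and 4 with library size alone. These lists were picked after their counts were seen, and the rest are not described between genotypes.

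The labelled cell type was checked with markers. Fibroblast markers summed to 7100.1, 7093 and 7200.5 CPM in the Null controls and 11678, 12263 and 11745 CPM in the DKO controls, and to 4066, 3979 and 3971 CPM and 5362, 5451 and 5139 CPM after etoposide, with Vim highest in mean CPM over the 12 libraries. Col1a1, Col1a2, Fn1 and Vim were abundant in every group, whereas Dcn and Lum stayed below 4 CPM and Thy1 stood at 4.50, 4.10 and 4.03 CPM in the Null and 0.0602, 0.0326 and 0.0168 CPM in the DKO controls. After etoposide, 9 of the 12 fibroblast markers were called lower and 1 higher in Null cells and 11 lower in DKO cells, and before it 11 were higher in DKO cells. Most members and most fibroblast markers were called lower after etoposide in both genotypes. In DKO against Null cells, members were called 8 higher and 19 lower in the controls and 14 higher and 21 lower after etoposide. Fibroblast markers went mostly the other way, with 1 called lower in the controls, and 10 higher and 2 lower after etoposide. Macrophage markers summed to 18.1, 19.5 and 16.4 CPM and 78.9, 78.5 and 78.4 CPM in Null cells before and after etoposide and to 9.31, 7.88 and 7.55 CPM and 14.9, 12.3 and 15.0 CPM in DKO cells, mostly from Cd14, with 6 of 6 tested called higher in Null and 5 in DKO cells. Tyrobp had at most 3 counts in every library and Adgre1 none in the controls. Epithelial markers, of which Krt8 had the highest mean over all libraries, summed to 2.68, 2.26 and 2.87 CPM and 3.32, 3.87 and 4.10 CPM in Null cells and 5.10, 5.05 and 5.94 CPM and 2.57, 2.02 and 2.16 CPM in DKO cells, with 3 of 6 called higher and 1 lower after etoposide in Null cells and 4 higher and 1 lower in DKO cells. Krt8 was the marker called lower in both (-0.77 and -3.18). Endothelial markers, of which Vwf had the highest mean, summed to 0.270, 0.154 and 0.232 CPM and 5.08, 4.95 and 4.56 CPM in Null cells and 0.211, 0.0652 and 0.185 CPM and 1.84, 1.52 and 1.46 CPM in DKO cells, and all 5 were called higher after etoposide in both. Of all genes, 42.3% were called higher and 37.2% lower after etoposide in Null cells and 43.7% and 31.5% in DKO cells. The markers' part in the members' changes was not tested.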

How the data were processed

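The submitters' processing notes name alignment with HISAT2 to mm10 and featureCounts, while the study's methods name HTSeq for counting on GENCODE genes from a stranded kit (TruSeq with Ribo-Zero); versions are not given in the sources used here. The values are raw counts per gene symbol as deposited by the authors, 1 column per library. Its 5 summary lines entered neither library sizes nor tests, so that counts on genes made up 53.4% to 63.1% of each library, with 20.2% to 27.3% in no feature and 15.9% to 20.5% not unique.

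Counts were filtered with filterByExpr, scaled by TMM (factors from 0.884 to 1.09) and fitted in edgeR 4.0.16 (glmQLFit and glmQLFTest, without the legacy option) in 1 model of 4 groups and 12 libraries, with 5 contrasts and Benjamini-Hochberg adjustment over 15220 genes. The study's own choice, limma-trend with robust empirical Bayes (limma 3.58.1), and DESeq2 1.42.0 were alternatives, under R 4.3.3. The edgeR, DESeq2 and limma-trend fits were tested on simulated data. The SE of a fold change is its size over the square root of the quasi-likelihood F. With 3 libraries against 3, an exact permutation test of a single gene could not go below p = 0.10, so none is given. No 2 libraries of a group were as close as copies of 1 library would be (chi-square over its degrees of freedom from 10.8 to 22.6).

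Members and lists were chosen with earlier results of these data known. Named genes followed a rule: per role, values by library for the 2 members with the highest mean CPM and for members called against most others in Null cells; per comparison, the 3 largest rises and falls past the threshold; per list, the 3 genes of highest CPM. Values by library of Wee1, Plk1 and Ccnb1 were added after seeing the data. Others are given by range or percent of control. Positions and exon lengths are from GENCODE M21 and promoters from RefSeq, both on GRCm38.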

Additional observations from a re-analysis of the deposited data

Results flagged for a closer look

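For 24 members the response to etoposide was not the same in the genotypes by the edgeR interaction (log2 response of DKO minus that of Null cells, adjusted p below 0.05). Above 0 were 13 (30.2%, against 29.6% of all genes) and below 0 11 (25.6%, against 24.4% of all genes), so that members were called about as often as other genes. It was below 0, a response that was lower in DKO cells, for Gtse1 (-1.05), Cenpe (-1.0002), Bub1b (-0.64), Cdc20 (-0.57), Ube2c (-0.48), Ccnb2 (-0.44), Wee1 (-0.41), Ccna2 (-0.39), Anln (-0.34), Cenpa (-0.29) and Kif20a (-0.20). It was above 0 for Mybl2 (0.50), Espl1 (0.48), Nek2 (0.39), Kif11 (0.37), Racgap1 (0.35), Cdc25b (0.30), Tpx2 (0.28), Cdk1 (0.25), Cenpf (0.20), Nusap1 (0.19), Kif2c (0.18), Birc5 (0.13) and Ect2 (0.12). Of these, Birc5, Cenpf, Kif20a, Kif2c, Nusap1 and Ect2 lost the call under at least 1 alternative, and the other 18 kept sign and call under all 21. Beyond the 24, 11 members gained a call with the same sign under at least 1 alternative, among them Plk1 (-0.19) under 10 of 21. The balance of signs depended on how libraries were scaled. No other line of either genotype is described for these libraries, so a difference between genotypes cannot be told apart from a difference between lines.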

How the results depend on the processing

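Leaving out each library in turn gave, for the members, 5 to 6 higher, 30 to 31 lower and medians of -0.45 to -0.42 (Null etoposide); 5 to 5 higher, 30 to 32 lower and medians of -0.48 to -0.44 (DKO etoposide); 8 to 9 higher, 17 to 20 lower and medians of -0.093 to -0.046 (DKO against Null controls); 13 to 14 higher, 18 to 22 lower and medians of -0.12 to -0.075 (after etoposide); and 8 to 14 higher, 11 to 13 lower and medians of -0.043 to 0.044 (interaction). With library size alone, 12 members were higher in Null and 15 in DKO cells, and the medians were -0.25, -0.17, -0.18 and, for the interaction, 0.10. It turned the sign of these values, each past the threshold under TMM or under library size alone: Ccna2 0.068, Aurkb 0.10, Incenp 0.11, Kif20a 0.16 and Ckap2l 0.17 (Null etoposide), Nek2 0.20, Aurkb 0.10, Incenp 0.21, Birc5 0.24, Bub1 0.26, Kif20a 0.063, Kif2c 0.10, Hmmr 0.18 and Ckap2l 0.22 (DKO etoposide), Bub1 -0.10 and Tpx2 -0.12 (DKO against Null controls). Among members past it under neither, signs turned for 0, 0, 7, 1 and 9 in the 5 comparisons, in the order above. It differs from TMM by construction, since it leaves out the correction for composition. Most genes were called after etoposide under TMM, 12091 of 15220 in Null and 11435 in DKO cells. Which scaling lies closer to the true levels was not tested. DESeq2, DESeq2-type size factors and a stricter filter (mean of at least 1 CPM) each gave 8 interactions above and 17 below 0. In that order their medians were -0.38, -0.38 and -0.34 for Null etoposide, -0.14, -0.15 and -0.15 for DKO against Null after etoposide and -0.073, -0.072 and -0.059 for the interaction. For DKO etoposide the median was -0.41 with the stricter filter, -0.48 with none and -0.47 from the 6 libraries alone. The cause was not tested.

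Libraries share replicate numbers, but the 18 same-numbered pairs had correlated deviations of only -0.032 to 0.043, and for that reason they were not treated as paired. A lean the other way is that 9 of 12 libraries were closest to their own number. With the replicate block, 6 members were higher and 31 lower in Null cells, 5 and 30 in DKO cells, and 12 and 12 for the interaction, where Plk1 gained and Ect2 lost its call. Members called in the same direction under every alternative, or called under none, numbered 33, 29, 28, 34 and 26 of 43 in the 5 comparisons. The legacy edgeR fit and the counts without Gtse1 were added after seeing the data. Depth was ample for every member. The limits are 3 libraries per group and no other line of either genotype for these libraries.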

Other observations

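Outside the naming rule, and chosen after their values were seen, some genes of the other mitotic lists stood apart from the members after etoposide. Psrc1, a microtubule regulator known as a p53 target, was at 6.16, 5.66 and 5.51 CPM in the Null controls, 113, 108 and 114 CPM in Null cells after etoposide, 3.82, 2.40 and 2.63 CPM in the DKO controls and 22.6, 21.9 and 20.7 CPM in DKO cells after etoposide. Ckap2, a spindle protein, was at 113, 106 and 101 CPM in Null controls and 423, 423 and 423 CPM in etoposide-treated Null cells, against 91.9, 85.1 and 84.4 CPM in DKO controls and 165, 164 and 181 CPM in etoposide-treated DKO cells. Both rose in both genotypes without overlap, and their interactions were -1.38 ± 0.14 (SE), edgeR adjusted p = 2.93e-07 and -1.02 ± 0.065 (SE), edgeR adjusted p = 5.77e-10. Of the kinetochore genes, the largest rise in Null cells was that of Spc25 (1.59 ± 0.055 (SE) in Null and 0.46 ± 0.055 (SE) in DKO cells), a subunit of the NDC80 complex. Among condensin and cohesin genes the largest rise was that of Esco2 (1.36 ± 0.062 (SE) in Null and 0.94 ± 0.061 (SE) in DKO cells), the cohesin acetyltransferase of S phase, and the largest fall that of Stag1 (-1.64 ± 0.040 (SE) in Null and -1.58 ± 0.039 (SE) in DKO cells), a cohesin subunit. The minus-end kinesin gene Kifc1 (1.28 ± 0.045 (SE) in Null and 0.61 ± 0.046 (SE) in DKO cells) and the plus-end kinesin gene Kif18b (1.09 ± 0.038 (SE) in Null and 0.45 ± 0.039 (SE) in DKO cells) rose as well. Other kinesin genes of that list differed: values were lower for Kif14 (-0.53 and -0.75 in Null and DKO cells), Kif18a (-0.58 and -0.66) and, in Null cells, Kif20b (-0.35, with -0.023 in DKO cells and 0.25 there with library size alone). Kif15 was called in neither genotype (0.083 and -0.076), though with library size alone it was called higher in both (0.25 and 0.20). Kif22 was called lower in both (-0.12 and -0.23), and its signs turned with library size alone (0.044 and 0.043).

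Rprm, the gene of the G2 brake reprimo, went from 0.307, 0.123 and 0.108 CPM to 20.8, 18.4 and 18.2 CPM in Null cells and from 0.120, 0.109 and 0.0336 CPM to 3.60, 3.86 and 3.57 CPM in DKO cells. It was scarcely detected in controls. Chek2, a checkpoint kinase gene, rose in both genotypes (1.53 ± 0.065 (SE) and 0.63 ± 0.066 (SE)), whereas Chek1 stayed near its control level under TMM (-0.013 ± 0.044 (SE) and 0.028 ± 0.044 (SE)). With library size alone none of the 11 brakes was left uncalled, at 9 higher and 2 lower in Null and 8 and 3 in DKO cells. Chek1 was then called higher in both. Ccne1 and Ccne2, the E cyclins of S phase entry, rose by 1.46 and 1.79 in Null and by 0.99 and 1.39 in DKO cells on the log2 scale, while the B cyclins among the members fell.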
